A study of Mus musculus with 8 samples.

Results

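Articular-type chondrocytes, the cells that express the genes of the joint surface, were examined in single-cell RNA sequencing of the mouse tibia at P56. Members were chosen by measured UMIs of 8 genes. A cell was taken as articular-type when its transcripts of Prg4, Cilp and Cytl1 together reached at least 3 unique molecular identifiers (UMIs, each standing for 1 captured transcript) and those of Acan and Sox9 at least 1. Cells with 5 or more UMIs of Col3a1, a fibroblast collagen, or of the hypertrophic genes Col10a1 and Ihh together were left out. This gave 117 cells, 2.62% of the 4460 cells that held at least 1600 genes and at most 20% mitochondrial UMIs, out of 12564 barcodes in all. They were set against 210 growth-plate-type cells, which had at least 10 Col2a1 UMIs and at most 1 Prg4 UMI, and against the 4343 other cells of the same filter. Because 32 of the members also met the growth-plate rule, those 32 were counted as articular-type alone.

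All cells came from 1 pool of 3 untreated mice aged 8 weeks that carried 1 floxed Mmp14 allele (MMP14 F/+), the COL10A1cre driver, the R26-tdT reporter and the Col1a1-2.3-GFP transgene. COL10A1cre acts in hypertrophic chondrocytes, so the tdTomato reporter and the loss of 1 Mmp14 allele mark these cells and what descends from them, while the Col1a1 promoter drives GFP in osteoblasts. The tissue was trabecular bone with part of the growth plate, and the suspension was enriched for tdTomato-positive cells, so shares of cells are not shares in the bone. The 8 labelled samples form 1 group and the cells carry no label of sample or mouse. No comparison therefore has replicates, and the intervals given, all at 95%, cover counting error only. Members held between 4050 and 48460 UMIs (median 12806) and growth-plate-type cells a median of 19804 UMIs.

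Articular cartilage covers the joint ends of bones and lasts through life, whereas growth-plate cartilage is built to be replaced by bone. Its surface cells secrete lubricin, the product of Prg4, which lowers friction in the joint. Cilp encodes a matrix protein of articular cartilage that binds growth factors, and Cytl1 a small secreted protein of chondrocytes. Growth-plate chondrocytes instead pass from resting to dividing to hypertrophic states under Indian hedgehog and PTHrP signals, and their matrix is rich in type II, IX and XI collagen and in matrilins.

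The members fell into 2 kinds of cell. In 83 members at least 3 Prg4 UMIs were found, and in the other 34 at most 2, with none in 29 of them. All 3 markers reached 3 UMIs each in 65 of the 117 members, and in a further 26 Cytl1 alone did so. Among members with Prg4, 3 cells held 3 to 9 Prg4 UMIs, 32 held 10 to 99, 39 held at least 100 but fewer than 1000, and 9 held 1000 or more. The gene therefore ranged over 3 orders of magnitude within the rule, and the highest cell, with 3262 Prg4 UMIs, gave 11% of all Prg4 in the group. Near the lower limit, 20 members had 3 to 5 UMIs of the 3 markers together, while 85 cells that otherwise qualified had 1 or 2.

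Because the rule used these genes, their levels are a description. Summed over cells and scaled to a total of 1000000 per group (CPM), Prg4 (chromosome 1, 150449412 to 150466165, minus strand, mm10) stood at 29025 CPM in the 83 Prg4 cells, 8.63 in the 34 other members and 4.00 in growth-plate-type cells. Cilp (chromosome 9, 65265180 to 65280605, plus strand) stood at 10812, 46.0 and 5.60 CPM, and a single cell gave 68.8% of the Cilp in the 34. Cytl1 (chromosome 5, 37735519 to 37739820, plus strand) stood at 15983, 451 and 213 CPM, with at least 1 UMI in 76 of 83, 33 of 34 and 63 of 210 cells. Neutrophil-type cells, which should lack these genes, gave 5.28 CPM of Prg4, 1.54 of Cilp and 3.19 of Cytl1. The low Prg4 of the 34 members and of growth-plate-type cells, and the Cytl1 of the 34, were set by the rules.

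**Figure D1:**
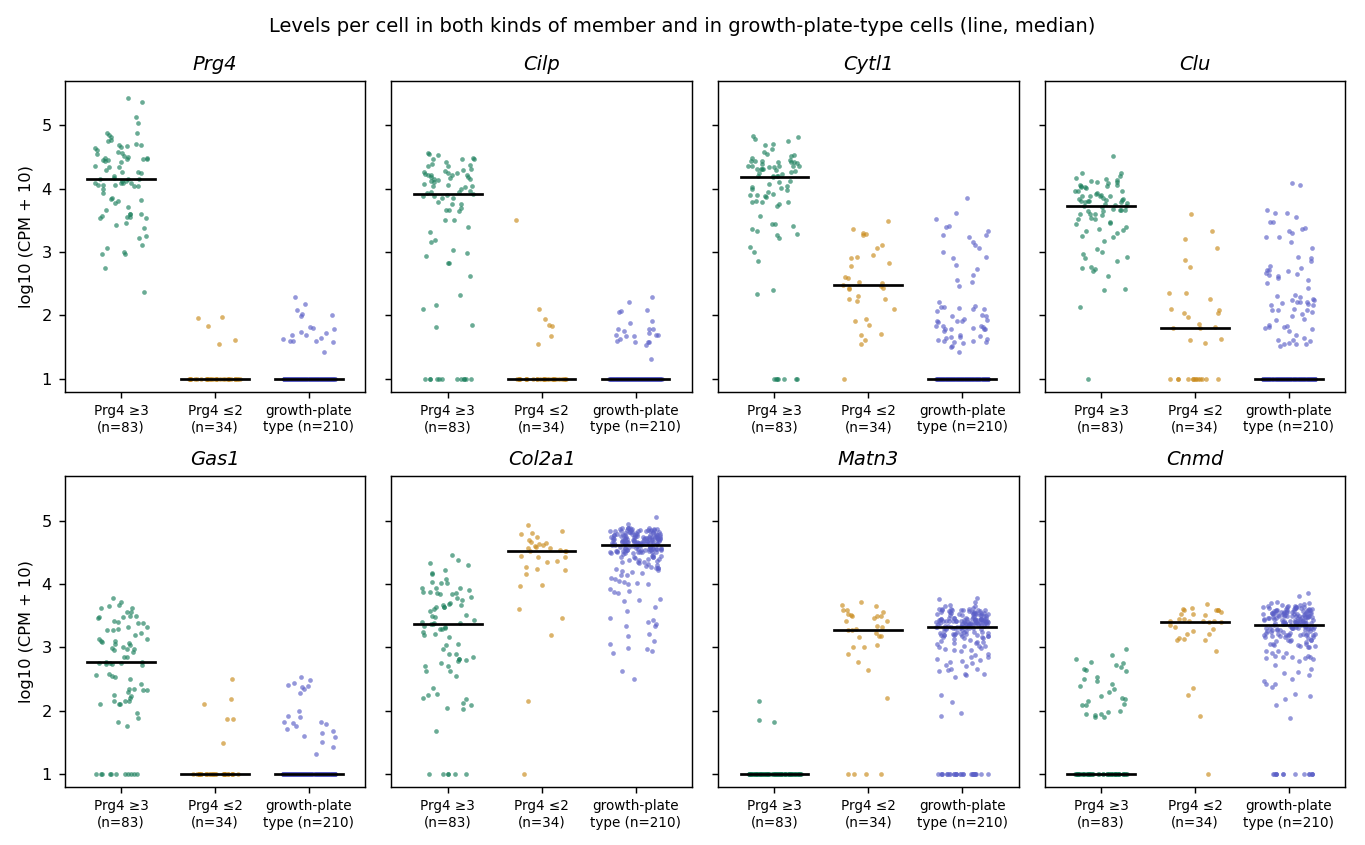
Level of 8 genes in each cell, as log10 of CPM plus 10, in the 83 members with at least 3 Prg4 UMIs, the 34 with at most 2 and the 210 growth-plate-type cells, with a line at each median. The 34 lie nearer to the growth-plate-type cells for Clu, Gas1, Col2a1, Matn3 and Cnmd, and the 83 lie apart from both.

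The cartilage genes outside the rule divided the members in the same way. Matn3, which encodes the growth-plate matrilin-3, was seen in 3 of 83 Prg4 cells at 2.94 CPM in sum, in 30 of 34 other members at 2234 CPM and in 183 of 210 growth-plate-type cells at 1953 CPM. Cnmd, for chondromodulin, an inhibitor of vessel growth in cartilage, stood at 91.2, 2550 and 2223 CPM. Summed over 5 growth-plate markers (Ucma, Matn1, Matn3, Cnmd and Col27a1) the levels were 1012, 7837 and 6635 CPM, with Matn1 at 0 in the Prg4 cells. By these values the 83 Prg4 cells had little Matn3 and Cnmd and no Matn1 UMI. The 34 members with little Prg4, of which 32 also met the growth-plate rule, carried these genes and are called Prg4-low members below. Ucma, another of the 5, was at least 2-fold lower in Prg4 cells than in the Prg4-low members. Against growth-plate-type cells it was less than 2-fold apart. The label of articular-type did not cover all 83 alike. In the 22 of them with fewer than 10 Cilp UMIs, described below, markers of hypertrophic chondrocytes summed to 21186 CPM and those of osteoblasts to 17003 CPM. The sum of Prg4, Cilp and Cytl1 was 19413 CPM. Ibsp, which is in both of the first 2 lists, gave 16592 CPM of each. In the median cell of the 22 the hypertrophic sum was 12199 CPM and that of Prg4, Cilp and Cytl1 14918 CPM.

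Markers of other cell types were then examined, since the gate could hold other cells of the joint. Markers of fibroblasts and synovial lining, 7 genes in all, summed to 110 CPM in the Prg4 cells, with Thy1, Col14a1 and Clec3b at 0, against 49.8 CPM in growth-plate-type cells. The rule limited Col3a1, 1 of these 7, in members but not in growth-plate-type cells, so this sum was in part set by the rule. The same holds for Col10a1 and Ihh in the sum of hypertrophic markers. The 6 tendon and ligament markers summed to 1024 CPM in Prg4 cells, 1741 in Prg4-low members and 1456 in growth-plate-type cells, with Kera at 0 in all 3 groups. Osteoblast markers summed to 4599, 1349 and 18817 CPM in the same order, and hypertrophic markers to 7486, 3174 and 9801 CPM. Ibsp is in both lists and gave 4444 CPM of each sum in Prg4 cells, with Spp1 most of the rest of the hypertrophic sum at 2979 CPM, while in growth-plate-type cells Bglap and Col1a1, at 6609 and 6048 CPM, were the largest parts of the osteoblast sum and Col10a1, at 4212 CPM, of the hypertrophic one. Neutrophil markers reached 33743 CPM in Prg4 cells, 19428 in Prg4-low members and 5076 in growth-plate-type cells, but the median member held 644 CPM and the median growth-plate-type cell 482. Erythroid markers summed to 21618, 782 and 11181 CPM, with 34.8% of the first in 1 cell, and macrophage and monocyte markers to 1153, 526 and 233 CPM. At least 50 UMIs of S100a8 and S100a9 were found in 14 of 117 members and 13 of 210 growth-plate-type cells, and a UMI of Ptprc, the pan-leukocyte gene, in 26 and 38. Some blood cell RNA was found in every member, with at least 159 CPM of erythroid markers and a median of 985 CPM. Large amounts of it sat in a minority of cells. The part of blood cell RNA in the results was not tested, and values without the cells holding Ptprc are given beside the genes they matter to. In the comparison of Prg4 cells with growth-plate-type cells, the calls of Bgn and Ero1l also ended without them, at log2 ratios of −0.89 and 0.75.

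The first comparison set all 117 members against the growth-plate-type cells. Among 8333 genes whose UMIs summed to at least 50 over the pair of groups, 612 (7.34%) were at least 2-fold higher and 403 (4.84%) at least 2-fold lower in the members, with a median log2 ratio of 0.05. For the 83 Prg4 cells alone, 869 (10.9%) of 7978 genes were 2-fold higher and 959 (12.0%) lower, with a median log2 ratio of 0.02. Set against each other, the 83 and the 34 differed 2-fold upward in 492 (11.9%) and downward in 407 (9.85%) of 4130 genes, and a split of all 117 at the median of Prg4 CPM gave 273 (6.61%) and 308 (7.46%). For the 34 Prg4-low members, 218 (2.84%) of 7685 genes were higher and 414 (5.39%) lower. The 32 members that met the growth-plate rule all lay among these 34, so the smaller counts for the Prg4-low members were in part set by the rules. The Prg4 cells are described first. With 1 pool these are folds without a test.

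Genes of lubrication and the articular surface were the list with the most members higher in Prg4 cells. Of 18 genes with enough UMIs, 13 were at least 2-fold higher and 1, Aqp1, lower, with a median log2 ratio of 3.11. Clu, which encodes the secreted chaperone clusterin, was seen in 82 of 83 Prg4 cells at 5773 CPM and in 71 of 210 growth-plate-type cells at 159 CPM, a log2 ratio of 5.18 (5.07 to 5.29). Cilp2, a paralog of Cilp, stood at 1494 and 66.4 CPM, and its log2 ratio was 4.49 (4.32 to 4.67). Creb5, a transcription factor known to act on Prg4 in superficial cartilage, was seen in 70 of 83 cells at 294 CPM against 26.0 CPM, with a log2 ratio of 3.50 (3.20 to 3.81). These 3 genes lay in nearly the whole group, with no cell above 5.81% of their UMIs.

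Further genes of the same list differed in how many Prg4 cells held them. Thbs4, for the matrix protein thrombospondin-4, was seen in 43 of 83 cells and stood at 218 against 15.8 CPM. Abi3bp, an extracellular matrix gene, was in 69 of 83 and stood at 462 against 15 CPM, and Sod3, the secreted superoxide dismutase, in 58 of 83, at 276 against 7.40 CPM. Has1, a hyaluronan synthase, was in 32 of 83 and stood at 90.2 against 9.4 CPM. Vcam1, an adhesion molecule, was 2-fold higher as well, in 5 of 83, but 1 cell gave 71.2% of its UMIs in the members and its log2 ratio in Prg4 cells was 0.44 without that cell, and 0.44 without cells holding Ptprc.

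Of the 15 genes with the highest ratio over all members that were spread over cells, some from the lists and some not, a serine protease came first. Htra4 (chromosome 8, 25024929 to 25038962, minus strand) was seen in 46 of 83 Prg4 cells at 195 CPM (169 to 224), in 1 of 34 Prg4-low members and in 1 of 210 growth-plate-type cells at 0.200 CPM. Its log2 ratio was 9.93, with an interval from 7.43 to 15.24 that reflects the single UMI on the growth-plate side. Gas1 (chromosome 13, 60174405 to 60177365, minus strand), a membrane protein that binds hedgehog ligands, was seen in 72 of 83, 6 of 34 and 24 of 210 cells, at 1093, 20.1 and 8.60 CPM. Tnxb, for tenascin-X, stood at 91.2, 1.44 and 0.800 CPM. Sbsn, for suprabasin, stood at 508, 5.75 and 6.2 CPM. Barx1, Grem1, Sod3, Clu and Abi3bp, described with their lists, were among the 15 too. Tesc, Itih5, Galnt15, Chst5, Plat and Ntn4 made up the rest, with log2 ratios over all members between 4.15 (Ntn4) and 5.48 (Tesc). In each of those with values given here the Prg4 cells were high, and the Prg4-low members and growth-plate-type cells both low.

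The cartilage collagens lay on the opposite side. Of 16 collagen genes none was 2-fold higher in Prg4 cells and 10 were lower, with a median log2 ratio of −2.17. The 10 were the type IX and XI chains given below, with Col27a1, Col12a1, Col1a1, Col1a2 and Col22a1. Of these Col1a1 is also an osteoblast marker. Col9a1, a chain of the type IX collagen that coats type II fibrils, was the lowest of the type IX and XI chains at 54.9 CPM in Prg4 cells, 3197 in Prg4-low members and 3598 in growth-plate-type cells, a log2 ratio of −6.03 (−6.44 to −5.66) for the Prg4 cells. Col9a2 and Col9a3 had log2 ratios of −3.70 and −3.83, and Col11a2 and Col11a1, of type XI collagen, −3.25 and −2.14. Over all 117 members the same type IX genes were lower by log2 ratios of only −1.44, −1.30 and −1.34, since the Prg4-low members held 695557 of the 1715813 UMIs of the members. Col2a1, which the comparison used, stood at 4697, 35846 and 41965 CPM, and 56 of 83 Prg4 cells had the 10 Col2a1 UMIs that the growth-plate rule asks for.

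Other matrix proteins differed in both directions between the groups. Of 25 cartilage matrix genes, 5 were 2-fold higher in Prg4 cells and 10 lower, with a median log2 ratio of −0.65. On the low side, Hapln1, the link protein that holds aggrecan to hyaluronan, stood at 1097 against 5568 CPM, and Mia at 150 against 1458 CPM. On the high side, Vcan, the aggrecan-like proteoglycan versican, was seen in 28 of 83 Prg4 cells and in none of the 34 Prg4-low members, at 103 against 1.40 CPM in growth-plate-type cells. Smoc2, a matricellular protein, stood at 610 against 121 CPM. Mgp, for matrix Gla protein, an inhibitor of mineralization, stood at 12839 against 5838 CPM, but its log2 ratio of 1.14 was 0.87 without the cell with most of it. Comp, a cartilage matrix gene shared by both tissues, differed by less than 2-fold at 3918 and 5377 CPM.

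Small leucine-rich proteoglycans, which bind collagen fibrils, were likewise mixed, with 3 of 10 higher and 3 lower. Decorin (Dcn) stood at 7391 CPM in Prg4 cells, 456 in Prg4-low members and 692 in growth-plate-type cells, a log2 ratio of 3.42 (3.36 to 3.47). Chad, for chondroadherin, stood at 5366, 1964 and 2074 CPM, and Omd, for osteomodulin, at 398, 187 and 106 CPM. Epyc, for epiphycan, was in 2 of 83 Prg4 cells, 23 of 34 Prg4-low members and 149 of 210 growth-plate-type cells, at 2.94, 253 and 278 CPM.

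**Figure D2:**
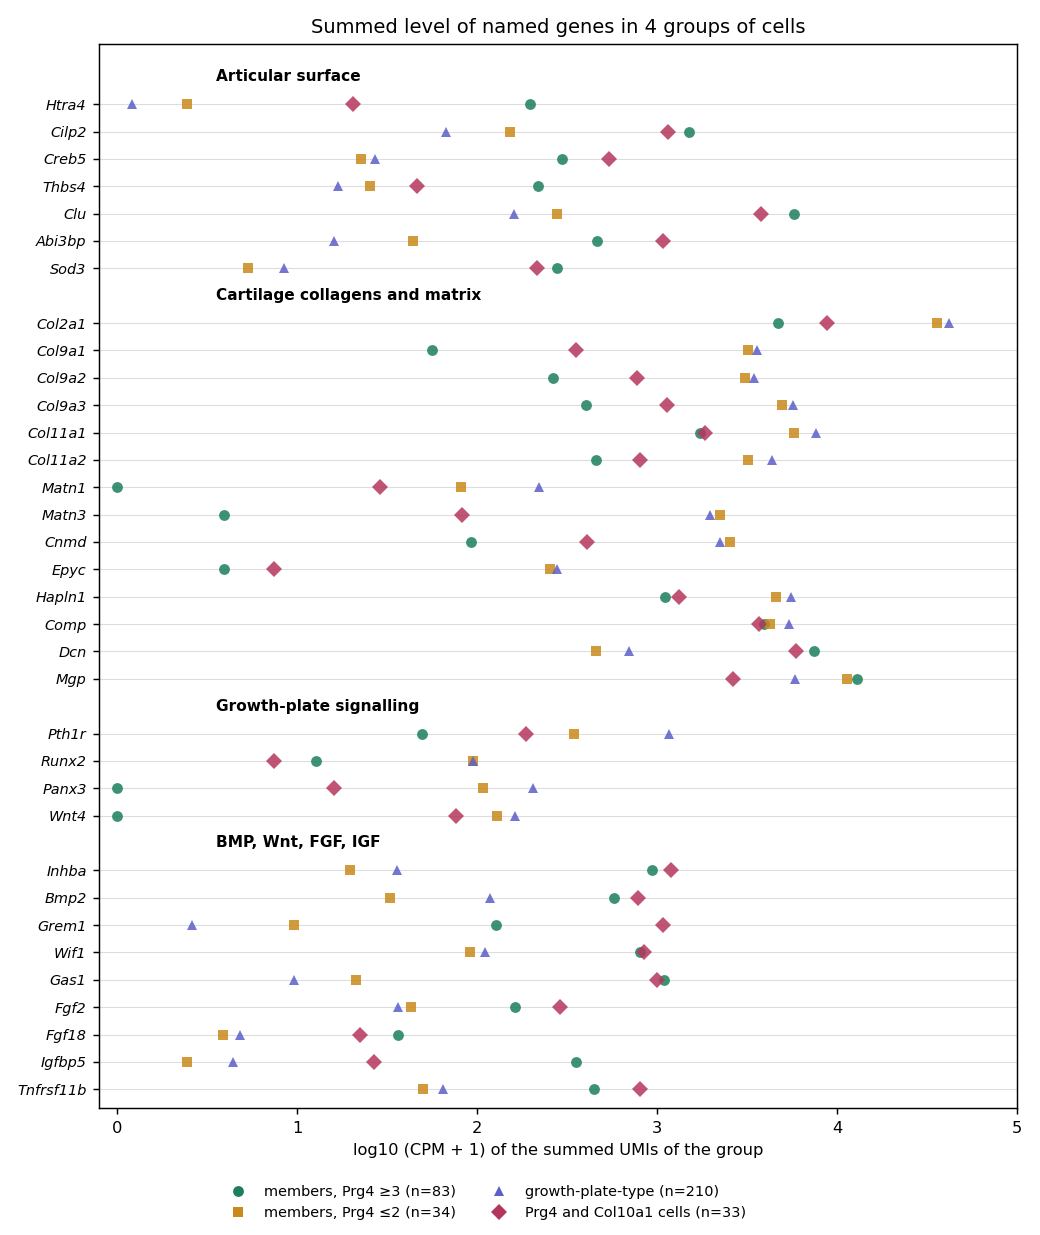
Summed level of 34 named genes, as log10 of CPM plus 1, in the 83 Prg4 cells, the 34 Prg4-low members, the 210 growth-plate-type cells and the 33 cells with both Prg4 and Col10a1. For the articular surface genes circles and diamonds lie to the right of squares and triangles, and for the type IX and XI collagens and Matn3 the order is the opposite.

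Prehypertrophic and hypertrophic genes were low in the Prg4 cells. Of 18 such genes, 13 were at least 2-fold lower and 1 higher, with a median log2 ratio of −1.87. Pth1r, the receptor for PTHrP and parathyroid hormone, stood at 48.0 CPM (35.5 to 63.5) in Prg4 cells, 344 (301 to 390) in Prg4-low members and 1158 (1129 to 1188) in growth-plate-type cells, and was seen in 21 of 83, 26 of 34 and 188 of 210 cells. Runx2, a transcription factor of hypertrophy and bone, stood at 11.8, 93.5 and 94.0 CPM. Panx3, a channel of hypertrophic chondrocytes, had no UMI in the Prg4 cells against 203 CPM in growth-plate-type cells, a log2 ratio of at most −6.11 when its 0 is set at 3 UMIs. Mmp13, the collagenase of the hypertrophic zone, was in 1 of 83 Prg4 cells and 8 of 210 growth-plate-type cells. Because the rule left out members with 5 or more UMIs of Col10a1 and Ihh while the growth-plate rule did not, 43 of the 210 growth-plate-type cells carried those genes, and part of this difference was set by the rules.

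Genes linked to mineral did not all follow. Ibsp, for bone sialoprotein, was at 4444 CPM in Prg4 cells and 2584 in growth-plate-type cells, less than 2-fold apart, and Spp1, for osteopontin, at 2979 and 1390 CPM. Spp1 was the 1 gene of the hypertrophic list that was 2-fold higher, and its log2 ratio of 1.10 was 0.81 without the cell with most of it and 0.90 without cells holding Ptprc. Alpl, the alkaline phosphatase of mineralizing cells, was lower at 141 against 570 CPM. Bglap, for osteocalcin, stood at 36.3 against 6609 CPM, with 23.8% of the latter in a single growth-plate-type cell, so that Bglap was found mainly on the growth-plate side.

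Among genes that mark the resting zone of the growth plate, Grem1, Gas1 and Barx1 were 2-fold higher in Prg4 cells and Sfrp5 and Foxa2 lower, of 7 with enough UMIs. Grem1, a secreted BMP antagonist, was in 27 of 83 Prg4 cells and 2 of 210 growth-plate-type cells, at 125 and 1.6 CPM. Barx1, a homeobox factor expressed at forming joints, was in 31 of 83, 1 of 34 and 2 of 210 cells, at 51.0, 1.44 and 0.400 CPM. Pthlh, which encodes PTHrP itself, was in 6 of 34 Prg4-low members at 31.6 CPM (19.8 to 47.9), in 18 of 210 growth-plate-type cells at 7.80 CPM (5.55 to 10.7) and in 3 of 83 Prg4 cells at 3.92 CPM. Sfrp5, a Wnt antagonist, followed that order at 108, 45.0 and 16.7 CPM. The list was therefore split, with Grem1, Gas1 and Barx1 in the Prg4 cells and Pthlh and Sfrp5 in the Prg4-low members.

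Transcription factors showed 9 of 27 genes higher and 6 lower in Prg4 cells. Besides Creb5 and Barx1, Foxo1, which has roles in cartilage upkeep, stood at 292 against 96.6 CPM, Nfib at 193 against 28.2 CPM, and Pitx1, a hindlimb factor, at 83.3 against 19.6 CPM. Sox5 and Sox6, partners of Sox9 in chondrocytes, differed by log2 ratios of only 0.28 and 0.38. The 6 factors on the low side were Runx2, Runx3, Mef2c and Sp7, which act in hypertrophy or bone, and Barx2 and Tcf7l2.

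Signalling genes lay on both sides. Of 26 BMP, GDF and TGF-beta genes, 12 were higher and 6 lower in Prg4 cells. Inhba (chromosome 13, 16011851 to 16031621, plus strand), a subunit of activin A, stood at 937 CPM against 34.8 CPM in growth-plate-type cells, was seen in 45 of 83 cells, and had a log2 ratio of 4.75 (4.52 to 4.99). Neutrophil-type cells held Inhba at 109 CPM, and without the members holding Ptprc the log2 ratio was 4.92. Bmp2 stood at 574 against 116 CPM, Bmp5 at 85.3 against 11.6 CPM, and Tgfbr3, a TGF-beta co-receptor, at 227 against 49.2 CPM, while Nog, the BMP antagonist noggin, was lower at 14.7 against 51.0 CPM.

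In the Wnt pathway 3 of 12 genes were higher and 7 lower. The 3 that were higher were the secreted antagonists Wif1, at 802 against 110 CPM, and Frzb, at 154 against 57.0 CPM, and the receptor Fzd9, at 133 against 27.8 CPM. The ligand Wnt4 had no UMI in the Prg4 cells, 128 CPM in Prg4-low members and 162 CPM in growth-plate-type cells. Wnt5b stood at 1.96 against 27.2 CPM. Antagonists were therefore not uniformly high, since Sfrp5 and Notum were among the 7 lower genes, at log2 ratios of −1.43 each, which were −0.95 and −0.96 without cells holding Ptprc.

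FGF and IGF genes were higher in 10 of 15 cases and lower in 2, with a median log2 ratio of 1.65. Fgf2 stood at 162 against 35.2 CPM, Fgf18, a growth factor for articular cartilage, at 35.3 against 3.80 CPM, and the receptor Fgfr2 at 93.1 against 19.4 CPM. Fgfr3, the receptor that restrains growth-plate chondrocytes, was on the low side with a log2 ratio of −1.30 (−1.64 to −0.97). Igfbp5, which binds insulin-like growth factors, stood at 355 against 3.40 CPM but was in 24 of 83 cells, and 26.5% of its UMIs lay in 1 of them.

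Of 20 mechanosensing, ion and water channel genes, 7 were 2-fold higher in Prg4 cells and 3 lower. Ank, which exports pyrophosphate, stood at 486 against 61.4 CPM, Enpp1, which makes it, at 284 against 86.4 CPM, Nt5e, which yields adenosine from its by-product, at 570 against 160 CPM, and the phosphate carrier Slc20a1 at 738 against 99.2 CPM. Atp1b1, Cav1 and Itga5 were the others that were higher, and Aqp1, Kcnk1 and Panx3 the 3 that were lower. Without cells holding Ptprc, the log2 ratio of Atp1b1 was 0.96 and that of Kcnk1 −0.79, so both calls ended. Alpl, which splits pyrophosphate and stands in another list, was lower in Prg4 cells, as given above. The mechanosensitive channels Piezo1 and Trpv4 differed by log2 ratios of 0.18 (−0.20 to 0.54) and −0.54 (−0.89 to −0.21).

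Proteases and their inhibitors were mixed, with 6 of 24 higher and 9 lower. Mmp9, a gelatinase of neutrophils among other cells, was 1 of the 6, with a log2 ratio of 1.12 that was −1.96 without cells holding Ptprc, and Adamts2, 1 of the 9, went from −1.28 to −0.40. Mmp14, the membrane protease whose floxed allele these mice carry, stood at 24.5 CPM (15.9 to 36.2) in Prg4 cells, 57.5 (41.1 to 78.3) in Prg4-low members and 65.6 (58.7 to 73.1) in growth-plate-type cells. It was seen in 13 of 83, 18 of 34 and 120 of 210 cells. Mmp2, a gelatinase that MMP14 activates, was lower too at 16.7 against 84.2 CPM. Serpine2, a secreted serine protease inhibitor, was higher at 1005 against 59 CPM, and Htra1, a relative of Htra4, at 326 against 123 CPM.

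Of 13 inflammation genes, 7 were higher and 5 lower. Tnfrsf11b, for osteoprotegerin, the decoy receptor that restrains osteoclast formation, stood at 447 against 63.6 CPM, and Tnfaip6, a hyaluronan-binding protein, at 137 against 15.2 CPM. Lcn2, a neutrophil marker as well, stood at 1461 against 173 CPM, and Il1b at 90.2 against 16.8 CPM. The log2 ratio of Il1b was 2.42 over all Prg4 cells and −0.52 without the cells holding Ptprc, so its direction rested on those cells. That of Tnfaip6 was 3.17 and 3.83, and that of Chil1 1.06 and 0.92. Ccl2, 1 of the 5 lower genes, had a log2 ratio of −1.22 that was 4.09 without the cell with most of it.

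Cell cycle, hypoxia and stress genes were nearer to level. None of 19 cell cycle genes was higher in Prg4 cells and 4 were lower, 5 of 24 hypoxia and glycolysis genes were higher and 1 lower, and 3 of 27 immediate-early and stress genes were higher and 6 lower. Genes of dividing cells (Top2a, Mki67, Birc5) were seen, with a UMI of at least 2 of them, in 13.7% (8.02 to 21.3) of the members and in 18.6% (13.6 to 24.5) of growth-plate-type cells. Of the members, 9 of 83 Prg4 cells, 10.8% (5.08 to 19.6), and 7 of 34 Prg4-low members, 20.6% (8.70 to 37.9), were such cells. Each cell thinned to 3000 UMIs, the shares were 6.63% in members and 9.0% in growth-plate-type cells. Without cells holding Ptprc in either group they were 7.69% (3.15 to 15.2) and 16.9% (11.6 to 23.3), and 6.25% (1.73 to 15.2) in Prg4 cells. The intervals of members and of Prg4 cells overlapped with those of growth-plate-type cells in each case.

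**Figure D3:**
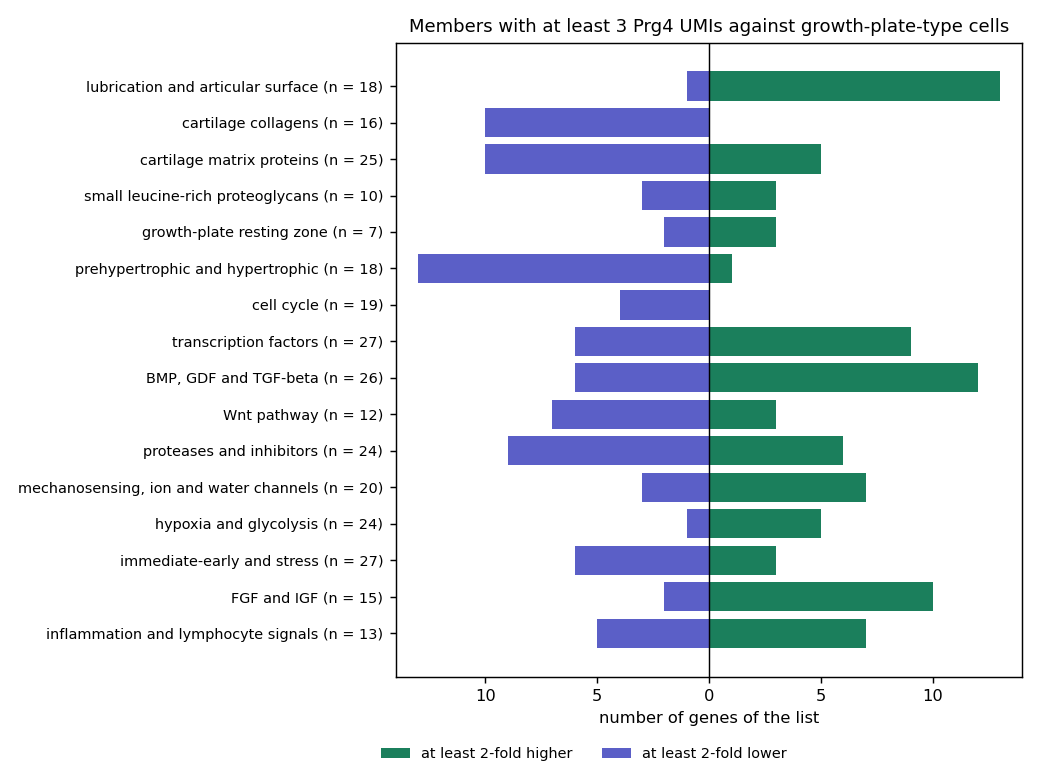
Number of genes at least 2-fold higher (right) or lower (left) in the 83 Prg4 cells than in the 210 growth-plate-type cells, for 16 gene lists, with the number of genes with enough UMIs beside each name. Articular surface genes lie mostly to the right with 13 of 18, and collagens, with 10 of 16, and hypertrophic genes, with 13 of 18, to the left.

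The Prg4-low members were compared with growth-plate-type cells in the same way. Of 16 collagens none was higher and 4 lower, and the median log2 ratio was −0.17, against −2.17 for the Prg4 cells. The 4 were Col1a1, Col1a2, Col5a2 and Col22a1, none of them a type IX or XI chain. Of 15 articular surface genes, Cilp2, Abi3bp, Has1 and Cpm were 2-fold higher and Aqp1 and Ptgis lower. Cilp2 stood at 151 CPM (123 to 183) against 66.4 CPM (59.5 to 74.0), and was seen in 24 of 34 against 71 of 210 cells. Clu, at 276 against 159 CPM, was less than 2-fold apart, and 1 cell gave 51.0% of the 276. Pth1r was lower at a log2 ratio of −1.75 (−1.95 to −1.57), Alpl at −2.14 and Bglap at −7.00. These cells therefore had growth-plate cartilage collagens with less of the hypertrophic and bone genes, and small amounts of a few articular surface genes. The limit on Col10a1 and Ihh had part in the difference in hypertrophic genes. Bone genes were uneven in growth-plate-type cells, where osteoblast markers had a median of 130 CPM per cell and a maximum of 356260. GFP, which the Col1a1 promoter drives, was seen in 10 of those 210 cells. Of its 3310 UMIs, 3309 lay in cells with fewer than 5 UMIs of Col10a1 and Ihh, which this limit would keep.

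Against all 4343 other cells, most of them blood cells, 2354 (18.2%) of 12929 genes were at least 2-fold higher in the members and 2738 (21.2%) lower, with a median log2 ratio of −0.16. The other cells include the 33 with Prg4 and Col10a1 and the 83 with Prg4 and Col3a1, described below. They held 84636 UMIs of Prg4, Cilp and Cytl1 in sum, against 57303 in the members. These ratios therefore do not set the members apart from other cells with Prg4, and Clu stood at 3769 CPM in the 33. The 10 leading genes spread over cells were Lgr6, Clu, Chst5, Fzd9, Crispld1, Smoc1, Gas1, Cilp2, Barx1 and Meltf. Lgr6, a receptor for R-spondins, was in 49 of 117 members and 87 of 4343 other cells, at 86.8 and 3.64 CPM, and its log2 ratio was 4.58 (4.26 to 4.89). Crispld1 was in 101 of 117 and 298 of 4343 cells, at 1015 and 55.5 CPM. Without cells holding a Ptprc UMI, which removes most blood cells from the other side, the log2 ratios of all 10 were smaller, between 2.49 (Barx1) and 3.17 (Lgr6), with Clu at 3.16, Gas1 at 2.90 and Crispld1 at 2.82.

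The lineage reporter was not part of the rule. It was read from WPRE, a sequence in the tdTomato transcript, with more than 14 UMIs taken as the mark of a cell of the hypertrophic lineage, the limit used in the study. Above that limit were 5 of 117 members, 4.27% (1.40 to 9.69), all of them among the 83 Prg4 cells. None of the 34 Prg4-low members passed, which allows a share of up to 8.82% when a count of 0 is taken as 3 cells, and up to 10.3% by the exact interval. Among growth-plate-type cells 26 of 210 passed, 12.4% (8.25 to 17.6), made up of 21 of 43 cells with at least 5 UMIs of Col10a1 and Ihh and 5 of 167 without. None of 1319 neutrophil-type cells passed, which allows up to 0.227% and 0.279% by the same limits. The share in members, 4.27%, and that in growth-plate-type cells without Col10a1 and Ihh, 2.99% (0.979 to 6.85), overlapped in their intervals.

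The reporter-positive members were mostly those with the most Prg4. The 4 members with the most Prg4, with 3262, 2350, 1930 and 1493 UMIs, held 44, 31, 60 and 19 WPRE UMIs, and the fifth passing cell held 15 Prg4 and 17 WPRE UMIs. The member with the next most Prg4, 1399 UMIs, held no WPRE UMI. Of the 4, a pair had no Col10a1 UMI and the others had 2 and 4. With 5 passing cells, a contrast by reporter rests on few cells. Of 4130 genes, 241 (5.84%) were 2-fold higher in the 5 and 837 (20.3%) lower than in the other 112, and the 112 included the 34 Prg4-low members, which the 5 did not. With Prg4 alone in the rule, which leaves 83 members, 101 genes were higher and 490 lower. Over all members Tnfaip6, seen in 4 of 5 cells and 31 of 112, was the highest by rule at 605 against 68.2 CPM. Spp1 and Cnmd were the lowest by rule, each seen in 1 of 5 cells, and the neutrophil and myeloid genes Lcn2, Camp, Ngp, Lyz2 and S100a8 came next. None of the 5 cells held a Ptprc UMI or 50 UMIs of S100a8 and S100a9, against 26 and 14 of the 112. Without cells holding Ptprc 138 genes were higher and 513 lower.

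Cells that met the rule with at least 3 Prg4 UMIs but held 5 or more Col10a1 UMIs stood just outside it, and 22 of these 33 cells, 66.7% (48.2 to 82.0), passed the reporter limit, with a median of 44 WPRE UMIs. Col10a1, the collagen of hypertrophic cartilage and the source of the Cre promoter, stood at 5568 CPM in them and at 12.7 CPM in the 83. Ordered by Col10a1 over both groups, the reporter passed in 3 of 78 cells with none, 2 of 5 with 1 to 4 UMIs, 4 of 8 with 5 to 19, 8 of 13 with 20 to 59 and 10 of 12 with 60 or more. The share of reporter-positive cells among cells with Prg4 was thus higher at each step of Col10a1, although the steps hold few cells. Had the limit on Col10a1 and Ihh been dropped, 178 cells would have met the rule, of which 24.7% passed.

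**Figure D4:**
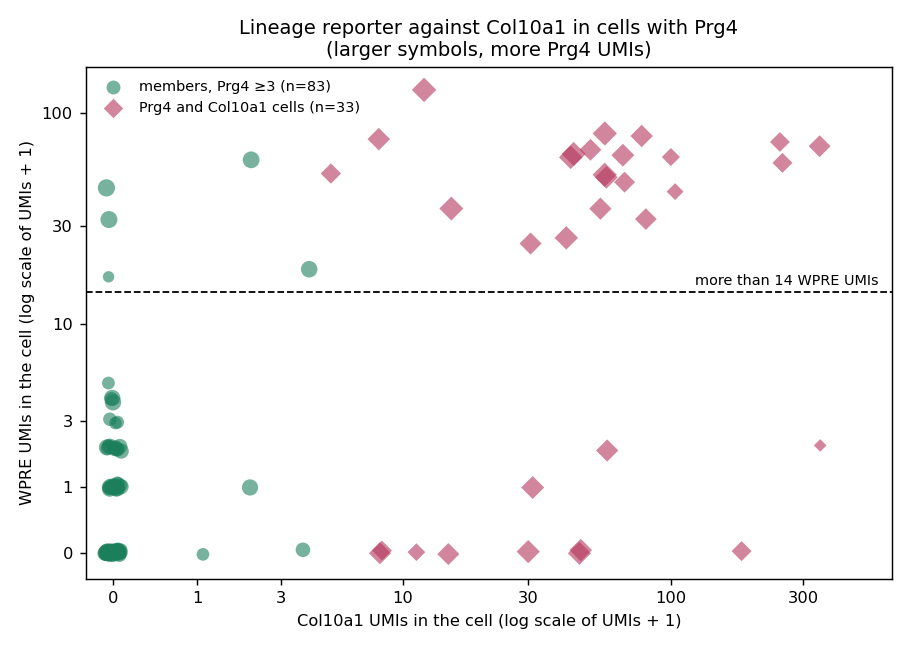
WPRE UMIs against Col10a1 UMIs in each of the 83 Prg4 cells and the 33 cells with Prg4 and at least 5 Col10a1 UMIs, on log scales of UMIs plus 1, with a dashed line above 14 WPRE UMIs and symbols sized by Prg4. The 5 members above the line have 0 to 4 Col10a1 UMIs, and 22 of the 33 diamonds lie above it.

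The rule markers were high in these 33 cells, as their choice on Prg4 required in part. Prg4 stood at 68022 CPM, Cilp at 12820 and Cytl1 at 28321, and all 3 markers reached 3 UMIs each in 30 of the 33. Of 3562 genes, 103 (2.89%) were 2-fold higher in them than in the 83 Prg4 cells and 254 (7.13%) lower. Of 16 articular surface genes outside the rule, 3 were higher, Gdf5, Abi3bp and Has2, and 5 lower, Thbs4, Vit, Cd44, Vcam1 and Igfbp6. Vcam1 was in 1 of the 33 cells, and 1 of the 83 gave 88.7% of theirs, without which its log2 ratio was 0.10. Without cells holding Ptprc the calls of Gdf5 (0.99), Abi3bp (0.16), Cd44 (−0.18) and Vcam1 (0.82) ended and Sod3 (−1.03) was lower, so that 1 gene was higher and 4 lower. Gas1 differed by a log2 ratio of −0.14 (−0.30 to 0.02) and Clu by −0.62. Of 11 hypertrophic genes with enough UMIs, Col10a1 aside, Pth1r was 2-fold higher and none lower, but this rested on 1 cell. That cell, with 3 Prg4 and no Cilp or Cytl1 UMIs, gave 95.4% of the Pth1r, 95.1% of the Col9a1, 92.1% of the Matn3, 75.5% of the Ibsp and all of the Ihh and Wnt4 in the 33. Without it none of the 11 was higher and 6 were 2-fold lower than in the 83, with log2 ratios of −2.37 for Pth1r, −2.60 for Alpl, −2.15 for Ibsp, −1.63 for Mef2c, −1.45 for Spp1 and −1.30 for Smpd3. Ibsp was then at 1001 CPM, Alpl at 23.2 CPM and Smpd3 at 25.5 CPM in the other 32. The 83 were not alike in these 3 genes. In the 61 of them with at least 10 Cilp UMIs, described below, all 3 were at lower levels than in the 32. Higher levels than in the 32 were found in the 22 with fewer Cilp UMIs. Mmp13 and Sp7 each had UMIs in 1 of the 33.

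Some genes did separate the 33 from the 83. Grem1 stood at 1069 CPM in 22 of 33 cells against 125 CPM in 27 of 83, a log2 ratio of 3.09 (2.81 to 3.38) that was 2.22 without the cell with 48.1% of it. Chrdl2, another BMP antagonist, was in 17 of 33 against 7 of 83 cells, at 191 and 38.2 CPM. Serpine2 stood at 2952 against 1005 CPM and Smoc2 at 2275 against 610 CPM. On the other side Htra4 was in 7 of 33 against 46 of 83 cells, at 19.3 and 195 CPM, and Thbs4, at 45.0 against 218 CPM, and Vit, at 109 against 361 CPM, were lower as well. Neutrophil genes such as Camp were lower, at 72.8 against 6852 CPM, with a log2 ratio of −4.63 without cells holding Ptprc, and none of the 33 held 50 UMIs of S100a8 and S100a9 against 10 of the 83. The 33 cells thus had more Grem1 and Chrdl2 and less Htra4, Thbs4 and Vit than the 83, of which 5 held 1 to 4 Col10a1 UMIs. The 33 also held more Prg4, as given above, and within the 83 Grem1 was higher above the median of Prg4 (log2 ratio 2.13). The parts of Prg4 and Col10a1 in these differences were not tested.

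The limit on Col3a1 left out a further 83 cells with at least 3 Prg4 UMIs and 5 or more Col3a1 UMIs, of which 1 passed the reporter limit, and 12 members held 3 or 4 Col3a1 UMIs.

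The 83 Prg4 cells were then split by Cilp. This split, at 10 Cilp UMIs, was chosen after the values had been seen, so the folds describe it and are not independent of Cilp. Of 2659 genes, 276 (10.4%) were 2-fold higher in the 61 cells with at least 10 Cilp UMIs and 102 (3.84%) in the 22 with fewer. The 22 were shallower, with a median of 7710 UMIs against 11731. Blood signal differed with the split as well. Neutrophil markers summed to 38541 CPM in the 61 and 18410 in the 22, where 1 cell gave 96.7% of them, while the median cells held 672 and 758 CPM. B cell markers stood at 198 and 0 CPM, and 9 of 61 against 1 of 22 cells held 50 UMIs of S100a8 and S100a9. Retnlg, a neutrophil gene, was 2-fold higher in the 61 at a log2 ratio of 4.45, and its ratio was 0.08 without cells holding Ptprc. The part of blood RNA in the counts was not tested.

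The 22 cells with little Cilp carried genes of mineralizing and bone-forming cells. Ibsp (chromosome 5, 104299171 to 104311469, plus strand) was in 18 of 22 at 16592 CPM (16084 to 17112) and in 17 of 61 at 643 CPM (588 to 702), and 15 of the 22 held 10 or more Ibsp UMIs against 9 of the 61. Alpl was in 14 of 22 at 563 CPM and in 5 of 61 at 9.01 CPM. Omd was in 15 of 22 at 1567 CPM and in 12 of 61 at 32.2 CPM. Alpl was seen in 14 of the 18 cells with Ibsp among the 22, so Ibsp and Alpl largely lay in the same cells. The overlap of Omd with them was not counted. Smpd3, a sphingomyelinase needed for mineralization, stood at 230 against 10.3 CPM, and Lum, for the fibril proteoglycan lumican, at 777 against 92.6 CPM.

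The same 22 cells did not carry the whole osteoblast set. Bglap was in 2 of 22 cells, 88.6% of it in 1 of them, Ifitm5 was at 0, Sp7 was in 2 cells, and Col1a1 stood at 111 CPM against 66.9 CPM in the 61. Col2a1 was higher in the 22, at 11134 against 2683 CPM, Comp stood at 6350 against 3157 CPM, and Clu was in 21 of 22 cells at 3175 CPM. The 22 thus held cartilage genes together with Ibsp, Alpl and Omd. None of them was a called doublet, and leaving out cells with Ptprc moved the log2 ratio of Ibsp from −4.69 to −3.84. Wif1 and Frzb, the Wnt antagonists that were high in Prg4 cells as a whole, were found at 1826 and 424 CPM in the 22 and at 481 and 69.5 CPM in the 61.

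Of 16 BMP, GDF and TGF-beta genes, Inhba, Bmp2, Bmp5 and Bmp6 were 2-fold higher in the 61 cells with more Cilp, and Tgfb2 and Grem1 were 2-fold lower. Inhba was in 40 of 61 cells at 1220 CPM and in 5 of 22 at 32.9 CPM, a log2 ratio of 5.21 (4.23 to 6.43). Bmp2 was in 50 of 61 at 727 CPM and in 10 of 22 at 86.4 CPM, and Vcan in 27 of 61 at 134 CPM and in 1 of 22. Lif, a cytokine of the interleukin-6 family, was in 19 of 61 cells and 1 of 22. Gas1 stood at 1341 against 300 CPM, and Mgp at 16218 against 2040 CPM. Prg4 itself was 35761 CPM in the 61 and 7494 CPM in the 22, while Cytl1 was nearer at 17298 and 11779 CPM. Of 21 hypoxia and glycolysis genes, 6 were higher in the 61, among them Slc2a1, Hk1, Hk2, Pgk1 and Vegfa, and none lower. The reporter passed its limit in 4 of the 61 and 1 of the 22.

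**Figure D5:**
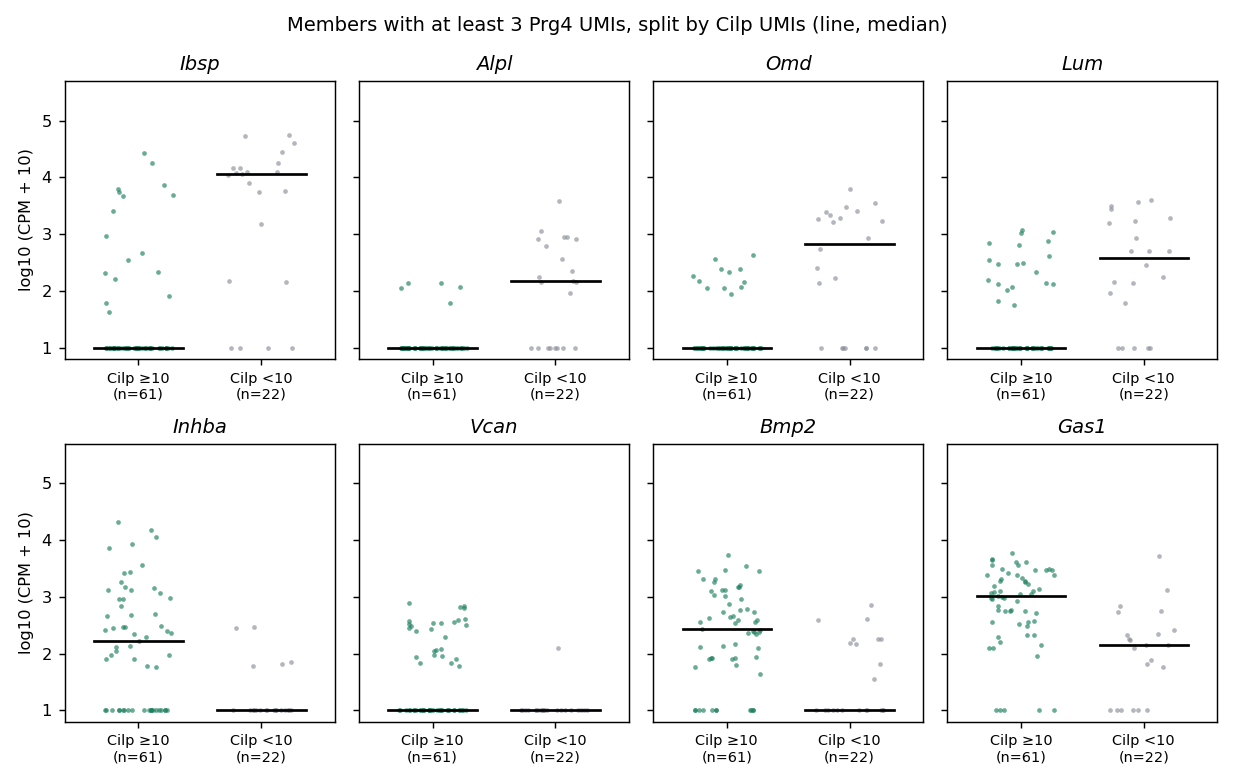
Level of 8 genes in each of the 83 Prg4 cells, as log10 of CPM plus 10, split into the 61 with at least 10 Cilp UMIs and the 22 with fewer, with a line at each median. Ibsp and Omd have medians above 0 CPM in the 22 alone, and Inhba and Bmp2 in the 61 alone.

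The Prg4 cells were also split at the median of Prg4, and 104 (3.91%) of 2659 genes were 2-fold higher and 94 (3.54%) lower above it. The counts of the 2 splits are not comparable, since the groups differ in size and UMIs. In the 41 cells above the median of Prg4, Inhba (log2 ratio 3.02), Lif (3.41), Bmp5 (2.66) and Grem1 (2.13) were higher, and Ibsp (−2.82), Alpl (−2.89) and Spp1 (−2.92) were lower. Grem1 thus had the opposite direction to that in the split by Cilp, where its log2 ratio was −1.27 (−1.79 to −0.74). Haemoglobin genes led the lower side, Hbb-bs first at −5.47. In 1 Prg4 cell erythroid markers made up 544463 CPM of its UMIs.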

How the data were processed

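The deposited matrix holds raw UMI counts per gene and barcode, which the authors made with Cell Ranger 3.1.0 on mm10 with reporter sequences added. Reads were not reprocessed. All 12564 barcodes came from 1 pool, so no test was run and no p-value is given. Cells were kept at 1600 genes and 20% mitochondrial UMIs, with median depths given in the text. Counts were summed per group, scaled to CPM, and compared as log2 ratios with exact conditional 95% intervals, while single levels carry exact Poisson and shares exact Clopper-Pearson intervals. A group with 0 counts was set at 3 UMIs, and a share of 0 at 3 cells, as a bound. Genes were called at 2-fold among those whose UMIs over the pair of groups summed to at least 50, leaving out genes of the rule and mitochondrial genes. Besides the members of 16 gene lists (375 genes, 2 not found), the genes named are those of largest ratio seen in at least 25% of cells of the higher group, with no cell holding 50% of their UMIs. The splits within Prg4 cells, and the separate account of members with at least 3 and at most 2 Prg4 UMIs, were chosen after values had been seen. Members and lists were chosen with earlier results of these data known. Scrublet (scanpy 1.11.5) was run on all barcodes to call doublets (3.54% marked, 2 members and 3 growth-plate-type cells) and were kept. Neutrophil-type cells held at least 50 UMIs of S100a8 and S100a9 and 1 of Ptprc. Coordinates are from GENCODE M21 (GRCm38), in which 31011 of 31053 gene identifiers were found. The calculation was tested on simulated counts with numpy 2.4.6, scipy 1.17.1 and pandas 2.3.3, and figures used matplotlib 3.10.9. Alternatives covered the rule, the filters, depth, single cells, doublets and blood cells.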

Additional observations from a re-analysis of the deposited data

How the results depend on the processing

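No paired analysis was possible because all cells came from 1 pool and no result came from a test. Of 1909 values for 386 genes by comparison under 5 alternatives, 1580 moved by less than their counting interval, 321 moved by more and 8 changed sign. Sign changed for Il1b (−0.27 for all members and −0.52 for Prg4 cells against growth-plate-type cells), Vcam1 (−0.32), Tnc (1.19) and Mmp9 (−1.96 for Prg4 cells) without cells holding Ptprc, and for Tnc (1.12) and Ccl2 (3.53 for all members, 4.09 for Prg4 cells) without the cell with most of their UMIs. In alternatives added after the data were seen, the ratio of cells with Prg4 and Col10a1 to Prg4 cells changed sign for Pth1r (−2.37) without 1 of the former and for Vcam1 without cells holding Ptprc (0.82) or without 1 Prg4 cell (0.10). Against growth-plate-type cells, 680 genes were lower with at least 6 marker UMIs and 959 with Prg4 alone in the rule, and 197 were higher and 156 lower among genes of at least 200 UMIs, against 2430 and 1101 with no filter, where genes of few UMIs enter. Between reporter-positive and other members, the genes higher numbered 128 (6 marker UMIs), 101 (Prg4 alone), 138 (no Ptprc), 45 (200 UMIs), 5616 (no filter) and 127 (WPRE above 4), and the genes lower 490 (Prg4 alone), 513 (no Ptprc) and 190 (200 UMIs). The share with the reporter was 19.5% in growth-plate-type cells at more than 4 WPRE UMIs, and with at least 1 WPRE UMI after thinning to 3000 UMIs it was 18.7% in members and 20.8% in growth-plate-type cells, where neutrophil-type cells gave 12.5%. Without the limit on Col10a1 and Ihh there were 178 members, of which 24.7% passed. The share of dividing cells was 7.69% without cells holding Ptprc and 6.63% after thinning. The causes of these differences were not tested. The pool, the enrichment for tdTomato and the absence of cell labels per mouse limit every value to these cells, and genes near 3 UMIs could not be told from 0.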
